A study of Mus musculus with 11 samples.

Results

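The genes described here carry symbols of chromosome duplication and cell division genes, although some of them have other roles. They were taken by symbol: Mcm2 to Mcm10, Cdk1, Cdk2, Cdk4, Cdk6, the cyclin families Ccna, Ccnb and Ccne, the numbered Cdc genes without Cdc42 and the symbols that begin with it, the Plk, Aurk, Bub1, Cenp and Kif families, the DNA polymerase subunits whose symbols begin with Pola, Pold or Pole, and Racgap1, Mki67, Top2a and Pcna. Of 7114 genes measured by a probe with 1 symbol, 87 fitted this rule. Another 6 genes named after Cdc42, which encodes a small GTPase of the cytoskeleton, were left out. The 87 genes were read by 116 probes, and 65 of them by a single probe.

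RNA from 11 mouse samples had been hybridised on 2-colour cDNA arrays, 1 array per sample, each against RNA from a mouse embryo reference. The series title names RAS isoforms in melanocytes, the pigment cells of the skin. Per the labels, the arrays were 3 with MEL in the name (D6_MEL, NRAS_MEL and HRAS_MEL), Melan A (a melanocyte line), 3T3 (a fibroblast line), VA_MEF (MEF was read as mouse embryonic fibroblast), VA_475, whose cell type the labels do not give, and the organs Heart, Kidney, Liver and Lung. NRAS_MEL shares its cell type code with D6_MEL, with Nras added to it, while HRAS_MEL has a code of its own. How a RAS gene was introduced, under which promoter and in how many clones is not given in the sources used here, nor are the age, sex, strain or number of the animals behind the organ and reference RNA. Every array, lines and organs alike, shares the same reference.

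All values below are log2 ratios of a sample's own RNA over the embryo reference, so 1 unit is 2-fold. The deposited table does not state its direction; because organ markers then stand out as high in 1 tissue each, it was read as the reference divided by the sample, and all signs were reversed. In the sample titles the sample comes first, which reads the other way. If the titles describe the table, every sign below turns, and what is written as lower would be higher. A ratio compares a gene with itself in the embryo, so it does not rank one gene's abundance against another's.

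Defining markers went against several labels, so those arrays are named by their labels throughout. Sftpd, the surfactant protein of lung, stood at 5.75 in the array labelled Liver and -1.25 in the array labelled Lung. For the liver genes Alb, Ttr and Apoa1 the median was 2.54 in the array labelled Lung and -5.25 in the array labelled Liver; both labels lie in the organ class. The heart genes Nppb and Fabp3 stood at 4.42 and 3.13 in the array labelled Melan A, against -0.01 and -1.9 in the array labelled Heart. Mlph, which ties pigment granules to myosin, was as high in the array labelled Heart (2.94) as in D6_MEL (3.18), against -0.06 in the array labelled Melan A. The array labelled VA_MEF carried the pigment cell genes Mlph at 3.06 and Rab38 at 3.4. Rab27a stood at 0.71 there, while Kit and Ednrb were low, at -1.63 and -3.48. In the array labelled Kidney, the kidney genes Lrp2 and Miox stood at 5.6 and 6.0. Cubn, the other kidney gene measured, stood at only 0.7 there, close to 0.5 in VA_475. Of the 14 melanocyte genes listed, 5 were measured, and Kit and Ednrb were below 0 in all 3 MEL-labelled arrays, at -1.93 to -1.09 and -2.98 to -2.41. In the array labelled Heart, Kit and Ednrb stood at -1.77 and -3.41, Rab38 at 0.31 and Rab27a at -0.72.

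A dividing cell licenses its replication origins in G1 by loading the Mcm helicase, copies its DNA in S phase with polymerases held on the sliding clamp Pcna, and enters mitosis when Cdk1 is switched on with its cyclin. Kinetochores then bind chromosomes to the spindle, a checkpoint holds back the anaphase-promoting complex (APC/C) until all are attached, and cytokinesis separates the daughters. Many of these genes are transcribed in waves, through E2F sites early in the cycle, and through CCAAT boxes and cell cycle homology regions (CHR) near the start site for the late genes. Most cells of adult kidney, liver, lung and heart do not divide, and cell lines in culture do.

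The promoters of 7 genes on which the results turn are printed first, 5′ to 3′ on the gene's strand, from RefSeq (GRCm38.p6). Each run is the 150 bases that end just before the annotated start site. Capitals mark the letters CCAAT, the letters TTTGAA and the letters TTCGAA as forms of the CHR, and the letters TTTNNCGC as a loose form of the E2F site. Both strands were searched, so that CCAAT on the other strand reads ATTGG, while TTTGAA reads TTCAAA. The first 5 genes were lower in organ arrays than in line arrays, with 3 mitotic genes, a chromosome enzyme and a helicase subunit among them. Cdk4 was lower too and has none of these letters in the window, and Kif11 was not lower although it has them.
Ccnb2 (chr9:70421555-70421704, minus strand): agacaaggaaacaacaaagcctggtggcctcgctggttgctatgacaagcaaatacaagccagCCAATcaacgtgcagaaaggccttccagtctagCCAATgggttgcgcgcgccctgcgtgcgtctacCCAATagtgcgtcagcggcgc
Cdc20 (chr4:118437344-118437493, minus strand): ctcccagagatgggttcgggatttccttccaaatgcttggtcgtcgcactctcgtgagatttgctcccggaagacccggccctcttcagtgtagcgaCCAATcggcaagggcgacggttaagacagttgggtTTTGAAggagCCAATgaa
Cdk1 (chr10:69352913-69353062, minus strand): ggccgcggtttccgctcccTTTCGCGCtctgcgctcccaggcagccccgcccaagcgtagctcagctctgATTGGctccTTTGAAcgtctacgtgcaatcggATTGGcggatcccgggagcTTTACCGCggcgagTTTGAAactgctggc
Top2a (chr11:99024190-99024339, minus strand): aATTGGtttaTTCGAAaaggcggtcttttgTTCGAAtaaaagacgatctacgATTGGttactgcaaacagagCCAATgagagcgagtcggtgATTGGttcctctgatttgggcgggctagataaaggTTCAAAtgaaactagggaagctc
Mcm6 (chr1:128359706-128359855, minus strand): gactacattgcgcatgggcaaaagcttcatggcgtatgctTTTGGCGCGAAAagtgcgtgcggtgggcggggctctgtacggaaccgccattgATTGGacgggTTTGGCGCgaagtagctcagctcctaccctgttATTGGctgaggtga
Cdk4 (chr10:127063385-127063534, plus strand): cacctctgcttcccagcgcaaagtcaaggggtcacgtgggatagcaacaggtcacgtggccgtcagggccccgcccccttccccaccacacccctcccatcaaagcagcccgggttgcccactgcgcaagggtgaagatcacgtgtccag
Kif11 (chr19:37376232-37376381, plus strand): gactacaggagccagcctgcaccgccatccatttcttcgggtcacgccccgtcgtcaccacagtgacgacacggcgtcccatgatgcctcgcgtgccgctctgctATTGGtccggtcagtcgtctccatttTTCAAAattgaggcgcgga

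In Ccnb2 the CCAAT letters begin 87, 54 and 21 bases upstream of the start site, at even spacing. Cdc20 and Cdk1 hold CCAAT and TTTGAA, and Cdk1 also has TTTNNCGC. Top2a has CCAAT at 4 places, with 2 TTCGAA runs and 1 TTTGAA, and Mcm6 has TTTNNCGC at 3 places, the 2 farthest of them overlapping on opposite strands, beside 2 CCAAT.

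The median of the 87 genes lay below the embryo reference in 4 arrays and near it in the other 7, the array labelled Heart among the latter. It was -0.48 in Kidney, -0.33 in the array labelled Liver, -0.43 in the array labelled Lung and -0.51 in the array labelled Melan A. Over the remaining 7 arrays it lay between -0.07 (the array labelled VA_MEF) and 0.25 (3T3), while the median over all 7114 genes lay between -0.09 and -0.03 on every array. At least 2-fold below the reference were 29 of the 87 in Kidney (10.6% of all genes), 20 in the array labelled Liver (6.57%), 25 in the array labelled Lung (12.7%) and 32 in the array labelled Melan A (13.0%). Elsewhere few were that low: 4 in 3T3 (10.1% of all genes), 4 in the array labelled VA_MEF (14.9%), 5 in VA_475 (13.3%), 2 in NRAS_MEL (11.4%), and 1 each in HRAS_MEL (10.4%), D6_MEL (10.1%) and the array labelled Heart (11.1%).

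**Figure D1:**
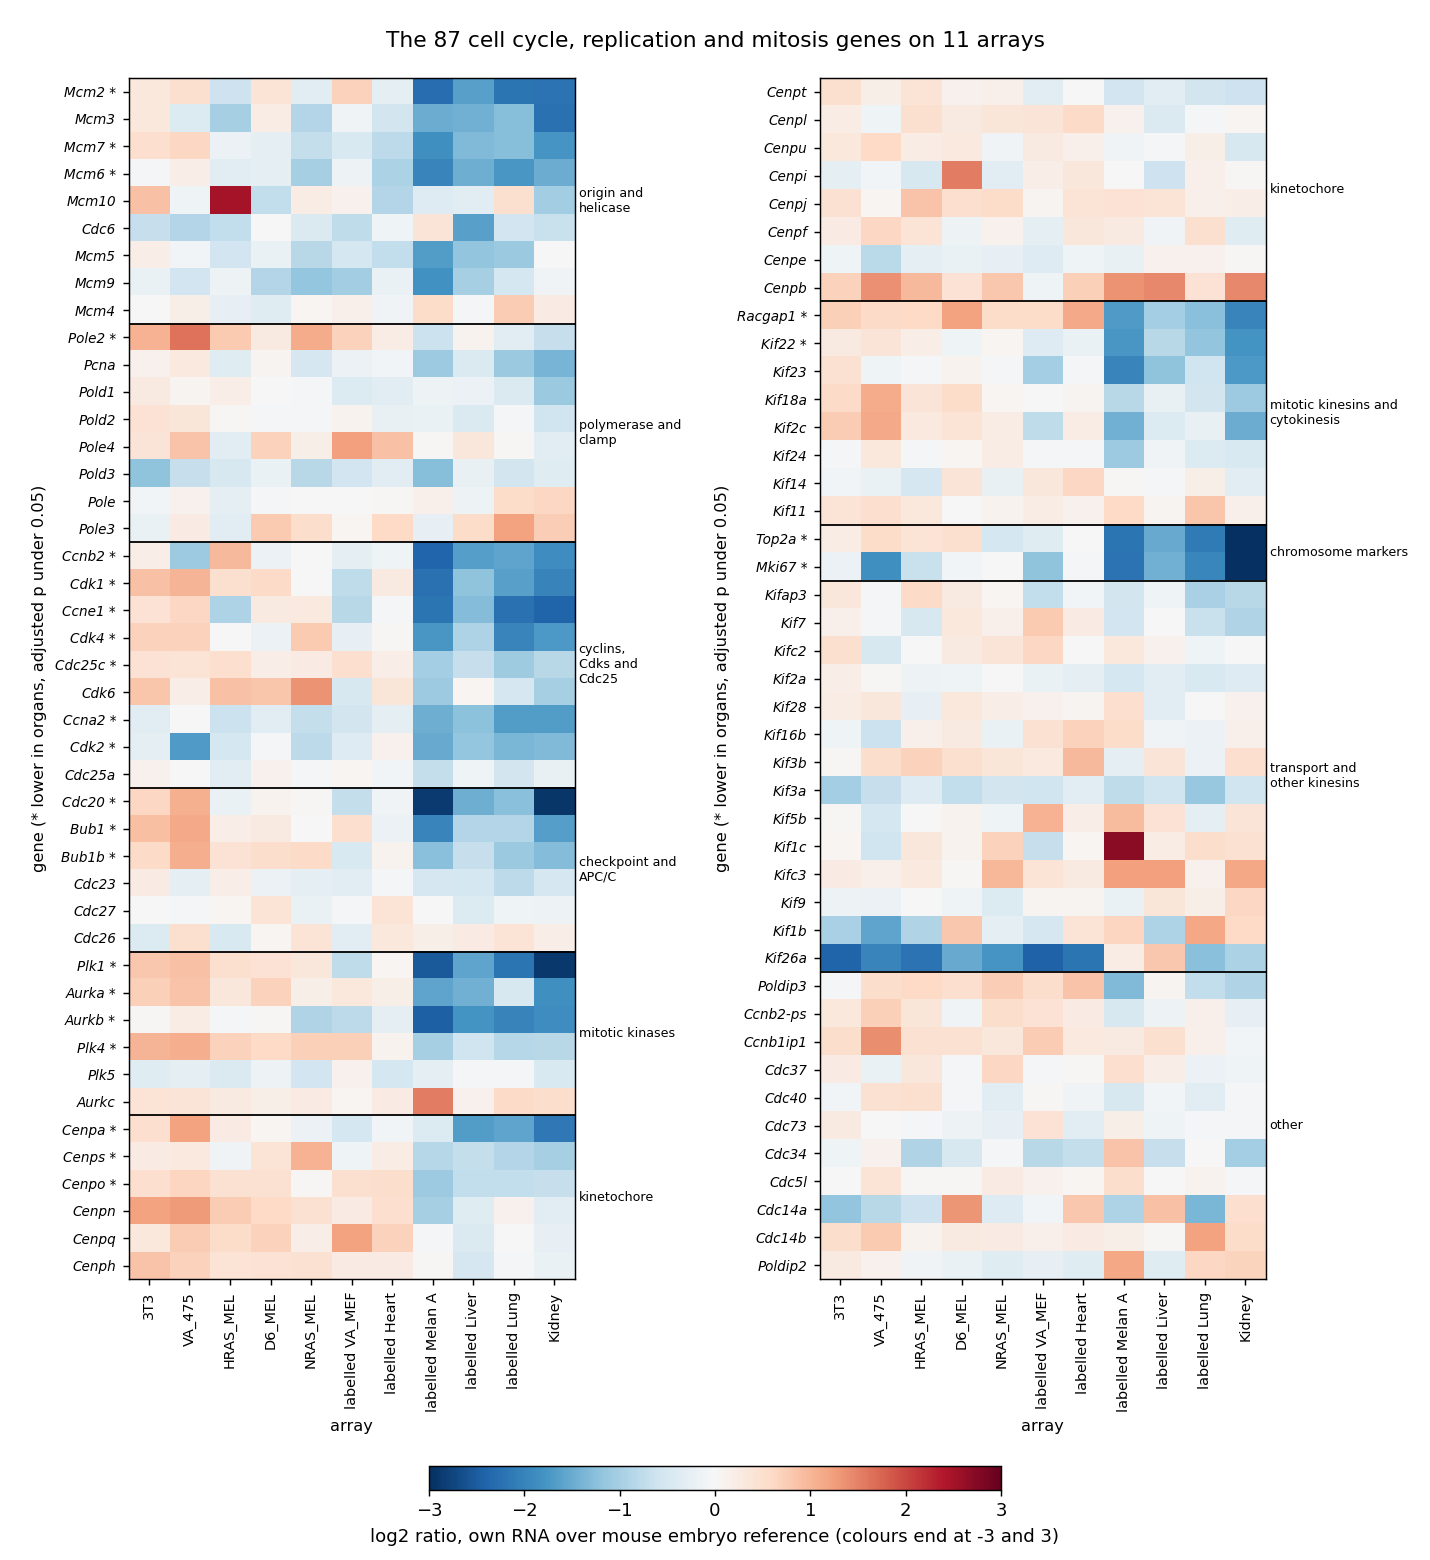
Log2 ratio of own RNA over the embryo reference for each of the 87 genes (rows, grouped by role, with a star for those lower in organs by limma) on the 11 arrays (columns); blue is below the reference, red above, and colours end at -3 and 3. The blue blocks lie in the 4 columns labelled Melan A, Liver, Lung and Kidney, while the transport kinesins and the mixed group at the lower right show no such block.

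Whether these genes differ between organs and lines was tested over 5 line arrays (3T3, HRAS_MEL, VA_MEF, D6_MEL and NRAS_MEL) and 3 organ arrays (Kidney, Liver and Lung). Each line and each organ counts as a replicate of its class, so the p-values rest on the spread among lines and among organs. D6_MEL and NRAS_MEL share a cell type code, and HRAS_MEL is also named MEL, so these lines may not be independent. The spread among lines may then be too small, and the p-values with it. The arrays labelled Heart and Melan A were left out because of their markers, and VA_475 because it has no class. All 87 genes had enough values to be tested. With limma and Benjamini-Hochberg adjustment over 7089 genes, 25 of the 87 (28.7%) were lower in organs at an adjusted p below 0.05, and 0 were higher; among all genes 2.84% were lower and 3.7% higher. At an unadjusted p below 0.05, 38 of the 87 were lower and 2 higher, against 11.5% and 15.8% of all genes. When the arrays labelled Heart and Melan A were put back under their labels, 6 lines against 4 organs, the same limma test called 0 of the 87, and 0 of 7100 genes in either direction; 3 were then lower and 2 higher at an unadjusted p below 0.05, against 3.01% and 5.28% of all genes. So every call below rests on leaving out those arrays.

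The median difference, organs minus lines, was -0.42 over the 87 genes and 0.03 over all genes, and 68 of the 87 were below 0. Groups did not overlap, with organs lower, for 35 of the 87, against 8.89% of all genes, and with organs higher for 3, against 10.2%. Leaving out 1 array at a time moved the count of lower genes, and with it the share of all genes called lower, given in brackets. Among the lines it gave 11 without 3T3 (0.848%), 15 without HRAS_MEL (2.02%), 14 without D6_MEL (1.36%), 15 without NRAS_MEL (1.23%) and 24 without the array labelled VA_MEF (2.54%). Among the organs it gave 9 without Kidney (0.749%), 12 without the array labelled Lung (1.05%) and 28 without the array labelled Liver (5.44%). The count of higher genes was 0 each time. All 25 differences kept their sign in each of 15 other settings, and 9 genes passed in all 8 leave-one-out fits: Ccnb2, Cdc25c, Cenpa, Cenpo, Mcm2, Plk1, Plk4, Racgap1 and Top2a. In whole tissue, fewer dividing cells and less RNA of these genes per cell cannot be told apart.

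Markers of other cell types moved with the same contrast. The leukocyte genes Lyz2 and Laptm5, 2 of 6 listed, had medians of -3.2 to -1.68 in the 5 lines, and of -1.14 in Kidney, 4.04 in the array labelled Liver and 0.39 in the array labelled Lung. Endothelial genes, 4 of 6 listed, lay at -2.01 to -1.05 in the lines and at 0.14, 2.0 and -0.68 in the same organ arrays. Erythroid genes, 3 of 8 listed, lay at -5.55 to -4.87 in the lines and at -2.3, -0.33 and -2.75 in those organs. By median, each of the 3 lists was higher in every organ array than in every line. Hba-x, an erythroid gene, was an exception, at -0.26 in NRAS_MEL against -1.22, -0.77 and -1.16 in the same organ arrays. Esam, an endothelial gene, was another, at -0.17 in NRAS_MEL against -0.31, 2.16 and -1.12. The other measured genes of these lists did not overlap between lines and organs. The part of these lists in the result was not tested.

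**Figure D2:**
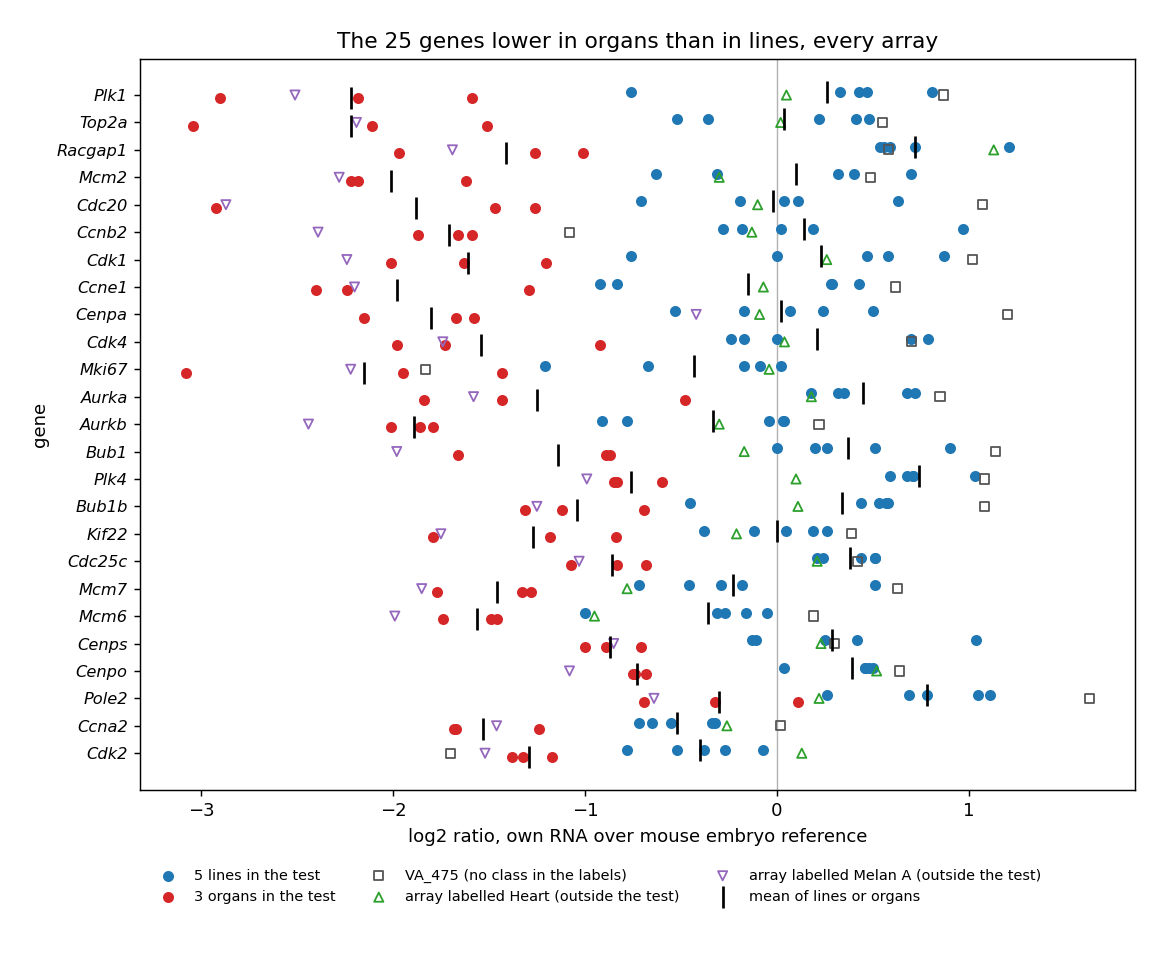
Log2 ratio on every array (horizontal axis) of the 25 genes lower in organs (vertical axis, largest difference on top); filled points are the 5 lines (blue) and 3 organs (red) in the test, bars their means, and open symbols the 3 arrays outside it. Red and blue points do not overlap for any of the 25; the open triangles of the array labelled Melan A lie with the red points for 24 genes, and those of the array labelled Heart lie above the red points for all 25.

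The helicase and its loaders, 9 genes, held 3 that were lower in organs: Mcm2, Mcm7 and Mcm6. Mcm2, a subunit of the helicase ring, stood at 0.32 in 3T3, -0.63 in HRAS_MEL, 0.7 in VA_MEF, 0.4 in D6_MEL and -0.31 in NRAS_MEL, and at -2.22 in Kidney, -1.62 in the array labelled Liver and -2.18 in the array labelled Lung. Every organ array lay below the lowest line. Its mean was 0.1 ± 0.55 (SD, n = 5) in lines and -2.01 ± 0.33 (SD, n = 3) in organs, a 4.3-fold lower level (difference -2.1, SE 0.33, limma adjusted p = 0.011). Mcm7 differed by -1.23 (SE 0.29, adjusted p = 0.0397) and Mcm6 by -1.2 (SE 0.24, adjusted p = 0.0258). Both lost their call when 1 of several arrays was left out, with limma adjusted p of 0.135 for Mcm7 without Kidney and 0.0761 for Mcm6 without the array labelled Lung.

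The 6 subunits of the same ring did not move by like amounts. Mcm3 stood at 0.32, -0.99, -0.1, 0.22 and -0.89 in 3T3, HRAS_MEL, VA_MEF, D6_MEL and NRAS_MEL and at -2.23, -1.43 and -1.28 in Kidney, Liver and Lung; the groups did not overlap, but the difference of -1.36 (SE 0.38) missed the threshold (limma adjusted p = 0.0645). Mcm5 was low in the arrays labelled Liver (-1.18) and Lung (-1.12) but at 0.01 in Kidney, within the lines' -0.84 to 0.2, and its difference of -0.38 had a 95% interval of -1.15 to 0.39. Mcm4 lay between -0.37 and 0.15 in the lines, and at 0.24, -0.03 and 0.77 in Kidney, Liver and Lung. Its difference of 0.4 (95% interval -0.13 to 0.93) left out falls of the size seen for Mcm2. Mcm4 and Mcm5 were read by 1 probe each.

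Other origin genes did not pass. Cdc6, which loads the helicase, differed by -0.42 (adjusted p = 0.4), with its lowest value, -1.62, in the array labelled Liver and the other organs inside the range of the lines. Mcm10, which helps to start the loaded helicase, had the widest spread of the group, from -0.75 in D6_MEL to 2.49 in HRAS_MEL among lines, and a difference of -0.89 (SE 0.66). Mcm9, a relative of the ring subunits that acts in recombination repair, differed by 0.15 (SE 0.32).

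Of the 8 polymerase and clamp genes, 1 was lower in organs. Pole2, an accessory subunit of polymerase epsilon, stood at 1.05, 0.78, 0.69, 0.26 and 1.11 in 3T3, HRAS_MEL, VA_MEF, D6_MEL and NRAS_MEL, and at -0.69, 0.11 and -0.32 in Kidney, Liver and Lung. All 5 lines were above the reference, and the highest organ, the array labelled Liver, lay just below the lowest line, D6_MEL. The difference of -1.08 (SE 0.27, limma adjusted p = 0.0465) was lost without Kidney (adjusted p = 0.154), without each of 5 other arrays, and under quantile normalization (adjusted p = 0.0538). Pcna, the clamp, stood at -1.39, -0.44 and -1.11 in Kidney, Liver and Lung against -0.5 to 0.14 in the lines, so the array labelled Liver fell inside their range (difference -0.82, limma adjusted p = 0.0921). The catalytic subunits Pold1 (-0.58, 95% interval -1.17 to 0.02) and Pole (0.41, 95% interval -0.09 to 0.91) went in opposite directions, and neither passed. Pole3, a histone-fold subunit of polymerase epsilon, had the highest difference of the 8, at 0.66 (adjusted p = 0.199).

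Cyclins, their kinases and Cdc25 phosphatases had 7 of 9 members lower in organs. Ccnb2, a cyclin that partners Cdk1 in mitosis, stood at 0.19 in 3T3, 0.97 in HRAS_MEL, -0.28 in VA_MEF, -0.18 in D6_MEL and 0.02 in NRAS_MEL, and at -1.87, -1.66 and -1.59 in Kidney, Liver and Lung. The organ arrays were close together, with an SD of 0.15, and all lay far below the lines. The difference was -1.85 (SE 0.29, 3.61-fold lower, limma adjusted p = 0.011) and passed in all 8 leave-one-out fits. Cdk1, the kinase that starts mitosis, stood at 0.87, 0.47, -0.76, 0.58 and 0.0 in 3T3, HRAS_MEL, VA_MEF, D6_MEL and NRAS_MEL and at -2.01, -1.2 and -1.63 in Kidney, Liver and Lung. Only the array labelled VA_MEF came near the organs, and the difference was -1.84 (SE 0.37, adjusted p = 0.0258). Cdc25c, the phosphatase that activates Cdk1, differed by -1.24 with a small error (SE 0.18, adjusted p = 0.0089), since its lines spanned only 0.21 to 0.51 and its organs -1.07 to -0.68.

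Genes of the entry into S phase were among them. Ccne1, which activates Cdk2, stood at 0.43, -0.92, -0.83, 0.28 and 0.29 in 3T3, HRAS_MEL, VA_MEF, D6_MEL and NRAS_MEL and at -2.4, -1.29 and -2.24 in Kidney, Liver and Lung. HRAS_MEL and the array labelled VA_MEF were the low lines, and the difference was -1.83 (SE 0.41, limma adjusted p = 0.036). Cdk4, the kinase of D-type cyclins, was highest in NRAS_MEL (0.79) and 3T3 (0.7) and differed by -1.76 (SE 0.34, adjusted p = 0.0231); its 2 probes gave -1.77 and -1.74. Ccna2, the cyclin of S and G2 phase, differed by -1.02 (SE 0.2, adjusted p = 0.0231), but its 3 probes disagreed, at -1.58, -1.49 and 0.03. Cdk2 differed by -0.89 (SE 0.21, adjusted p = 0.0392). Without Kidney the limma adjusted p was 0.0948 for Cdk1, 0.123 for Ccne1, 0.0802 for Cdk4, 0.0866 for Ccna2 and 0.117 for Cdk2. Other arrays mattered too. Of the 8 leave-one-out fits, Cdk1 and Cdk2 passed in 2, Ccne1 in 3, and Cdk4 and Ccna2 in 4.

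The 2 members of the set that missed the threshold were Cdk6 and Cdc25a. Cdk6, which like Cdk4 binds D-type cyclins, stood at 1.34 in NRAS_MEL and 0.84, 0.88 and 0.84 in 3T3, HRAS_MEL and D6_MEL, but at -0.47 in the array labelled VA_MEF, inside the organs' range of -0.99 to 0.07 (difference -1.16, adjusted p = 0.112). Cdc25a, an earlier-acting phosphatase, differed by -0.29 (95% interval -0.73 to 0.14).

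Of 6 checkpoint and APC/C genes, 3 were lower in organs, and they were the 3 that regulate the complex. Cdc20, the activator of the APC/C at anaphase, stood at 0.63, -0.19, -0.71, 0.11 and 0.04 in 3T3, HRAS_MEL, VA_MEF, D6_MEL and NRAS_MEL and at -2.92, -1.47 and -1.26 in Kidney, Liver and Lung. Kidney was far below the other organs, and the difference was -1.86 (SE 0.42, limma adjusted p = 0.0359; -1.34 and 0.0918 without Kidney). Bub1, a checkpoint kinase at the kinetochore, was at or above 0 in all 5 lines (0.0 to 0.9) and at -1.66, -0.89 and -0.87 in the organs; it differed by -1.52 (SE 0.28, adjusted p = 0.019; 0.0573 without Kidney). Bub1b, its partner in the checkpoint, differed by -1.38 (SE 0.29, limma adjusted p = 0.0271, and 0.103 without Kidney). Of the 8 leave-one-out fits, Bub1b passed in 2, Cdc20 in 3 and Bub1 in 7.

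None of the 3 measured subunits of the APC/C among the members passed the test. Cdc23, whose organs lay below every line, differed by -0.54 (95% interval -1.02 to -0.07, limma adjusted p = 0.138), Cdc27 by -0.28 (-0.72 to 0.17) and Cdc26 by 0.42 (-0.12 to 0.96). The lower ends of all 3 intervals exclude a fall as large as the estimate for Cdc20, -1.86. The 95% interval of Cdc20 itself, -2.81 to -0.91, overlaps that of Cdc23. Of the subunits outside the 87 genes, Anapc4 differed by -0.72 (adjusted p = 0.0514) and Anapc1 by -0.6 (0.114), both with no overlap between organs and lines, Anapc5 by -0.53 (0.191), Anapc10 by -0.18 (0.742) and Anapc2 by -0.05 (0.943), by limma.

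Mitotic kinases had 4 of 6 members lower in organs. Plk1, the polo kinase of mitotic entry and spindle assembly, had the largest difference of the 87 genes: it stood at 0.81, 0.47, -0.76, 0.43 and 0.33 in 3T3, HRAS_MEL, VA_MEF, D6_MEL and NRAS_MEL and at -2.9, -1.59 and -2.18 in Kidney, Liver and Lung. Lines averaged 0.26 ± 0.59 (SD, n = 5) and organs -2.22 ± 0.66 (SD, n = 3), which is 5.56-fold lower (difference -2.48, SE 0.4, limma adjusted p = 0.0126). Plk4, which starts centriole duplication, was above 0 in all 5 lines, at 1.03, 0.68, 0.71, 0.59 and 0.71 in the same order, and at -0.83, -0.6 and -0.85 in the organs. Both groups were tight, and the difference of -1.5 (SE 0.18) had the smallest adjusted p of the 87, 0.00454.

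Aurka, the Aurora kinase of spindle poles, differed by -1.7 (SE 0.31, limma adjusted p = 0.0188). Its organ values were uneven, -1.84 in Kidney and -1.43 in the array labelled Liver but -0.48 in the array labelled Lung. Aurkb, the Aurora kinase of the chromosomal passenger complex, differed by -1.55 (SE 0.28, adjusted p = 0.0187), with even organ values of -1.86, -1.79 and -2.01. NRAS_MEL (-0.91) and the array labelled VA_MEF (-0.78) had less Aurkb than the other lines, which lay between -0.04 and 0.04. Without Kidney the adjusted p rose to 0.0558 for Aurka and 0.0547 for Aurkb; it also passed 0.05 for Aurka without 3T3 (0.0522) and for Aurkb without the array labelled Lung (0.0527).

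Aurkc and Plk5, relatives with known roles outside somatic mitosis, did not pass the test. Aurkc, the Aurora kinase of meiosis, differed by 0.18 (95% interval -0.24 to 0.61; -0.07 with all 10 labelled arrays) and Plk5 by 0.08 (-0.41 to 0.58). Aurkc was highest, at 1.53, in the array labelled Melan A.

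Top2a, the enzyme that untangles replicated chromosomes, and Mki67, the protein that coats mitotic chromosomes and is stained as a marker of division, were both lower in organs. Top2a stood at 0.22, 0.41, -0.36, 0.48 and -0.52 in 3T3, HRAS_MEL, VA_MEF, D6_MEL and NRAS_MEL and at -3.04, -1.51 and -2.11 in Kidney, Liver and Lung (difference -2.26, SE 0.38, 4.79-fold lower, limma adjusted p = 0.0142). Mki67 stood at -0.17, -0.67, -1.21, -0.09 and 0.02 in the lines in the same order and at -3.08, -1.43 and -1.95 in the organs. For both genes Kidney was the lowest array of all 11, and for Mki67 the array labelled VA_MEF lay close to the nearest organ. The Mki67 difference of -1.73 (SE 0.41, adjusted p = 0.0433) fell to -1.27 without Kidney (adjusted p = 0.123), and it was also lost without 3T3, HRAS_MEL, D6_MEL, NRAS_MEL or Lung.

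Kinetochore genes, 14 in number, were mixed. They were grouped by the Cenp symbol alone, so some, such as Cenpj, may not be kinetochore parts. Lower in organs were Cenpa, Cenpo and Cenps. Cenpa, the histone H3 variant that marks centromeres, stood at 0.5, 0.24, -0.53, 0.07 and -0.17 in 3T3, HRAS_MEL, VA_MEF, D6_MEL and NRAS_MEL and at -2.15, -1.67 and -1.58 in Kidney, Liver and Lung. Its groups were more than 1 unit apart, its 2 probes gave -1.89 and -1.75, and the difference was -1.82 (SE 0.27, limma adjusted p = 0.00857). Cenpo, a subunit of the inner kinetochore network, lay at 0.46 to 0.5 in 4 lines and 0.04 in NRAS_MEL, against -0.75 to -0.68 in the organs (difference -1.11, SE 0.18, adjusted p = 0.0128). Cenps, another inner subunit that also serves DNA repair, differed by -1.16 (SE 0.28, limma adjusted p = 0.0467, and 0.144 without Kidney). It passed in 2 of the 8 leave-one-out fits.

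A further 5 kinetochore genes, Cenpn, Cenpq, Cenph, Cenpt and Cenpl, did not overlap between the groups, with differences of -0.84 to -0.49. They missed the threshold (limma adjusted p 0.0678 to 0.132). With Cenpa, Cenpo and Cenps, 8 of the 14 did not overlap with organs lower, against 8.89% of all genes. The remaining 6 gave adjusted p of 0.206 or more. Among them, Cenpf, a large outer kinetochore protein that peaks in G2 and mitosis, differed by -0.07 (95% interval -0.65 to 0.51). Cenpe, the kinetochore motor, differed by 0.34 (-0.02 to 0.71). It was the 1 gene of the 14 that did not overlap with organs higher, against 10.2% of all genes. Cenpb, which binds the CENP-B box of centromeric repeats, differed by 0.56 (-0.19 to 1.3).

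Among 8 mitotic kinesin and cytokinesis genes, Racgap1 and Kif22 were lower in organs. Racgap1, part of the centralspindlin complex that places the cleavage furrow, stood at 0.72, 0.59, 0.56, 1.21 and 0.54 in 3T3, HRAS_MEL, VA_MEF, D6_MEL and NRAS_MEL and at -1.97, -1.01 and -1.26 in Kidney, Liver and Lung. Every line was above the reference and every organ well below it, and the difference was -2.13 (SE 0.27, 4.39-fold lower, limma adjusted p = 0.00455). Its 2 probes shared the direction but not the size, at -3.48 and -0.79. Kif22, a kinesin that binds chromosome arms, differed by -1.27 (SE 0.26, limma adjusted p = 0.0261, and 0.0846 without Kidney), with probes at -2.29 and -0.26. It passed in 2 of the 8 leave-one-out fits.

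Kif23, the motor partner of Racgap1 in centralspindlin, differed by -1.07 and did not pass (limma adjusted p = 0.103); 2 of its 3 probes gave -2.07 and -2.01 and the third 0.87. Kif18a, which shortens kinetochore microtubules, fell just short with -0.94 (adjusted p = 0.0564), and the groups did not overlap. Kif2c, a microtubule depolymerase, differed by -0.89 (adjusted p = 0.185). Kif11, the motor that pushes spindle poles apart, stood at 0.01 to 0.4 in the lines and at 0.15, 0.09 and 0.84 in Kidney, Liver and Lung (difference 0.15, 95% interval -0.36 to 0.66). The Kif11 interval excludes a fall of the size seen for Racgap1 or Kif22 averaged over their probes. The smaller probe difference of Kif22, -0.26, lies inside that interval. Kif11 was read by 1 probe, and the interval does not cover a fault of the probe.

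The group of transport and other kinesins holds every gene with a Kif symbol that was not placed in the mitotic group. Many of them move vesicles, organelles or cilia parts, but a role in division is not excluded for each. Of these 14 genes, 0 were called in either direction. Their median difference was -0.12, and at an unadjusted p below 0.05 limma gave 1 lower and 2 higher. Kif26a, an atypical kinesin, was far below the reference in all 5 lines, at -2.43 to -1.51, and at -0.94, 0.81 and -1.25 in Kidney, Liver and Lung; the difference of 1.61 (SE 0.46) was the highest of the 87 and missed the threshold (adjusted p = 0.0673). Kifap3, the adaptor of the Kif3 motor, differed by -0.75 (adjusted p = 0.178). The mixed group held the 11 genes placed in no other group, such as the splicing factors Cdc40 and Cdc5l, the chaperone partner Cdc37 and the phosphatase Cdc14a. A role in division is not excluded for each of them either. Of these 11, 0 were called and 1 was lower at an unadjusted p below 0.05 by limma. That gene was Poldip3, a partner of polymerase delta that also acts in mRNA export, with -0.99 (adjusted p = 0.066); it passed without the array labelled Liver, at -1.29. Poldip2, another such partner, had the highest difference of the 11, at 0.44 (adjusted p = 0.35). Ccnb2-ps, a pseudogene of Ccnb2 whose probe may also bind Ccnb2 transcripts, differed by -0.39 (adjusted p = 0.258) and is reported as uncertain.

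Set side by side, the median difference was -1.99 for the chromosome markers, -1.53 for mitotic kinases and -1.24 for cyclins and kinases. It was -0.96 for checkpoint and APC/C genes, -0.92 for mitotic kinesins and cytokinesis, -0.89 for origin and helicase genes and -0.58 for kinetochore genes. Polymerase and clamp genes had -0.44, and both the transport kinesins and the mixed group had -0.12. Differences between these groups of genes were not tested.

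**Figure D3:**
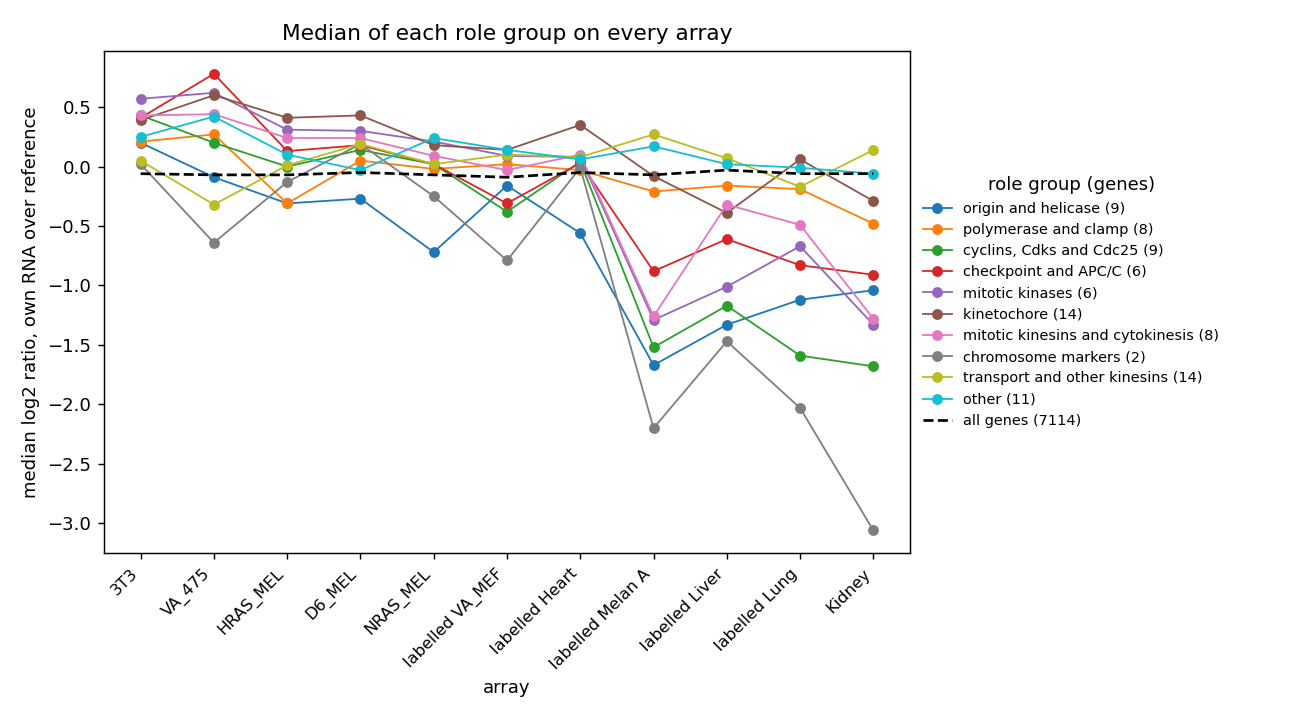
Median log2 ratio over the genes of each role group (coloured lines; number of genes in brackets) on the 11 arrays, with the median over all 7114 genes dashed; the joining lines only guide the eye. The medians drop in the 4 arrays on the right for most groups, to -3.06 for the chromosome markers in Kidney, and stay between -0.17 and 0.27 there for transport kinesins and the mixed group.

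The arrays outside the test were set against the ranges of the lines and organs. The array labelled Melan A lay below every one of the 5 lines for 24 of the 25 genes, against 92.0% of all genes called lower. The exception was Cenpa, at -0.42 there against -0.53 in the lowest line. The array labelled Heart lay above every organ for all 25 (98.0% of all genes called lower), and VA_475 for 23 (96.0%). Mki67, at -1.83, and Cdk2, at -1.7, were the 2 in which VA_475 reached down to the organs; Ccnb2 was also low there, at -1.08. VA_475 was set against 3T3 and differed from it by -1.66 in Mki67, -1.43 in Cdk2 and -1.26 in Ccnb2. These 3 were the members at least 2-fold lower, against 4.04% of all genes, and 0 were higher, against 3.18%. The other low and high ends of the VA_475 minus 3T3 difference were Mcm10 at -1.0 and Kifc2, a minus-end kinesin, at -0.95, and Cdc26 and Ccnb1ip1, an E3 ligase of meiosis, at 0.88 each. Other division genes were high in VA_475, such as Cdk1 at 1.02, Cdc20 at 1.07, Plk1 at 0.87 and Bub1 at 1.14.

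A core of 19 genes, Mcm2 to Mcm7, Pcna, Cdk1, Ccna2, Ccnb2, Top2a, Mki67, Plk1, Aurka, Aurkb, Bub1, Bub1b, Cdc20 and Racgap1, summarises the order of the arrays. Ccnb1, which belongs to such a list, was not analysed here. The core median was 0.49 in VA_475, 0.32 in 3T3, 0.11 in D6_MEL, 0.0 in NRAS_MEL, -0.1 in the array labelled Heart, -0.18 in HRAS_MEL and -0.36 in the array labelled VA_MEF. It was then -1.28, -1.43, -1.86 and -1.98 in the arrays labelled Lung, Liver, Kidney and Melan A. The 19 genes spread around these medians; the quartiles of the core ran from -0.72 to 0.05 in NRAS_MEL and from -0.18 to 0.45 in D6_MEL. The gap between VA_MEF and Lung was the widest step in this order.

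Single arrays had an order too. Among the 25 genes lower in organs, 3T3 was the highest line for 14, against 15.6% of all genes, and NRAS_MEL and the array labelled VA_MEF were the lowest for 10 each (18.9% and 29.2% of all genes). Kidney was the lowest organ for 18 of the 25 (31.1% of all genes), and the array labelled Liver the highest for 18 (39.3%). No gene of the 25 had its lowest line value in 3T3 or its lowest organ value in the array labelled Liver.

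The RAS question could only be described, since NRAS_MEL, HRAS_MEL and D6_MEL had 1 array each and no test is possible. At least 2-fold apart were 4.6% of the 87 genes in NRAS_MEL minus D6_MEL, 11.5% in HRAS_MEL minus D6_MEL and 3.45% in NRAS_MEL minus HRAS_MEL. The shares over all genes are given with each comparison below. By median, no role group differed by 2-fold. In NRAS_MEL minus D6_MEL, 4 of the 87 were at least 2-fold lower and 0 higher, against 4.4% and 2.46% of all genes. The 4 were Cenpi, a kinetochore subunit, at -1.87, Cdc14a, a phosphatase, at -1.72, Mcm3 at -1.11 and Kif1b, a kinesin of axonal transport, at -1.1; Top2a came next at -1.0. At the other end were Mcm10 at 0.98, Cdk4 at 0.96, Kifc3, a minus-end kinesin, at 0.95, Pole2 at 0.85 and Cdc37 at 0.7. The median over the 87 was -0.13, and 0.02 over all genes.

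Most of Mcm2 to Mcm7 were lower in NRAS_MEL than in D6_MEL. They stood at -0.31, -0.89, 0.06, -0.84, -1.0 and -0.72 for Mcm2, Mcm3, Mcm4, Mcm5, Mcm6 and Mcm7, against 0.4, 0.22, -0.37, -0.19, -0.27 and -0.29 in D6_MEL. Thus 5 of the 6 were lower and Mcm4 was higher, with a median difference of -0.68. The array labelled Heart, whose values lie close to D6_MEL in general (2.09% of genes at least 2-fold apart), differed from D6_MEL in these 6 genes by a median of -0.62, with 5 of 6 lower. Both differences share the D6_MEL array. In HRAS_MEL minus D6_MEL the median of the same 6 genes was -0.21, with 4 of 6 lower. In NRAS_MEL minus HRAS_MEL it was -0.08, with 3 of 6 lower.

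HRAS_MEL minus D6_MEL had 2 of the 87 at least 2-fold higher and 8 lower, against 5.23% and 5.91% of all genes. Mcm10 was the outstanding value, at 2.49 in HRAS_MEL against -0.75 in D6_MEL and 0.23 in NRAS_MEL, a difference of 3.23 from D6_MEL, and the next highest array was 3T3 at 0.88. Mcm10 was read by 1 probe, so no second probe checks it. Ccnb2 was also higher, by 1.15; Mcm9, at 0.73, was next. The lowest were Cenpi at -2.03, Cdc14a at -1.95, Kif1b at -1.73, Mcm3 at -1.21 and Ccne1 at -1.2. Pole3, Pole4 and Mcm2 made up the 8, at -1.13, -1.03 and -1.03.

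Cenpi, Cdc14a, Kif1b and Mcm3 were low against D6_MEL in both RAS-named arrays, but both comparisons share that 1 array. Cenpi stood at 1.54 in D6_MEL, while the other 10 arrays lay between -0.61 and 0.35. For Cdc14a the values of D6_MEL and of the array labelled Heart were 1.33 and 0.8, and for Kif1b 0.82 and 0.42. So Cenpi was high in the D6_MEL array alone, and the array labelled Heart was itself 1.18 units below D6_MEL there, the only member of the 87 at least 2-fold apart between those 2 arrays (1.23% of genes lower, 0.862% higher). With D6_MEL replaced by the array labelled Heart, the NRAS_MEL counts became 1 lower and 1 higher, and the HRAS_MEL count of lower genes became 4.

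Compared directly, NRAS_MEL minus HRAS_MEL had 2 of the 87 at least 2-fold higher and 1 lower, against 4.27% and 5.08% of all genes. Ccne1 was higher by 1.21, at 0.29 against -0.92, and Cenps by 1.15, at 1.04 against -0.11. Mcm10 was lower by the most, at -2.26. Next came Pole3 at 0.87, Cdc26 at 0.86 and Cdc34, a ubiquitin-conjugating enzyme, at 0.84, and, on the lower side, Mcm9 at -0.98, Ccnb2 at -0.94, Top2a at -0.93 and Aurkb at -0.87. The core median difference was -0.14. Probes of the same gene differed within an array by a median SD of 0.25, which is the only measure of technical error in the table.

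**Figure D4:**
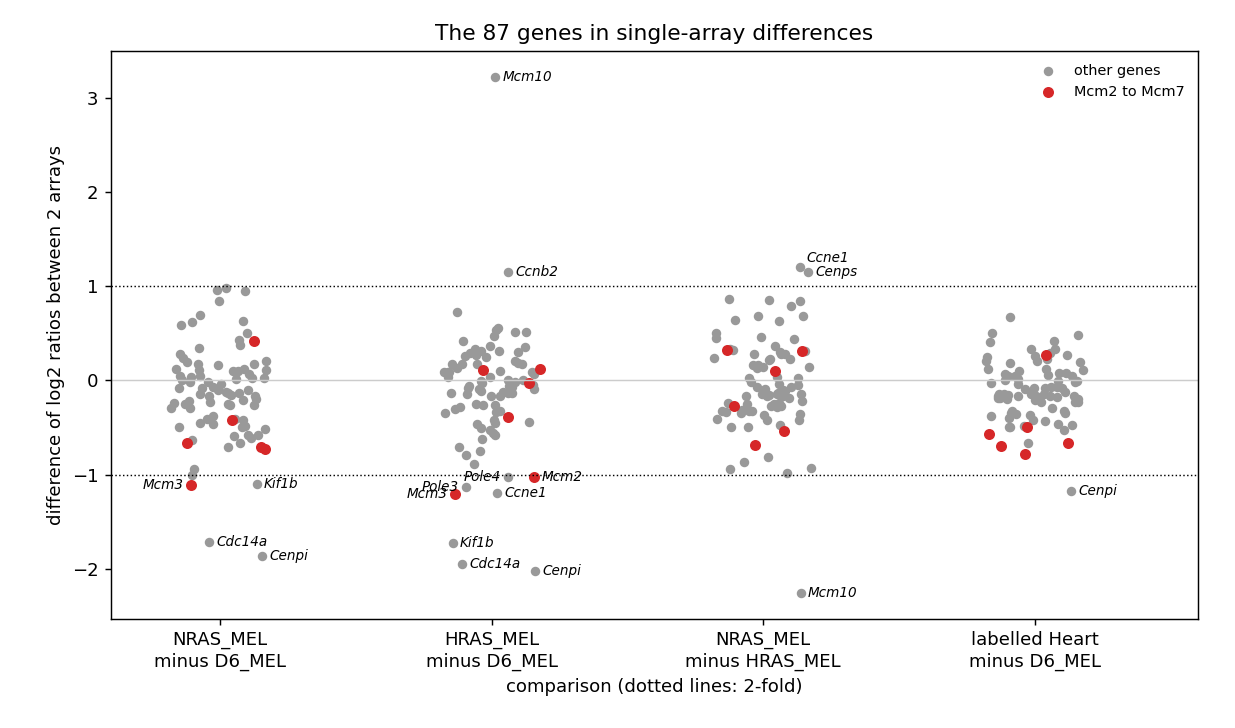
Difference of log2 ratios between 2 arrays (vertical axis) for each of the 87 genes in 4 comparisons (columns of points, spread sideways at random); red points are Mcm2 to Mcm7, dotted lines mark 2-fold, and genes beyond them are named. Most points lie inside the lines; Mcm10 stands at 3.23 in HRAS_MEL minus D6_MEL, Cenpi is low in the 3 comparisons with D6_MEL, and 5 of 6 red points lie below 0 in the first and last columns.

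Neighbouring genes of the same pathways, from lists written by role and with no member among them, showed the class difference as well. Of 31 measured DNA synthesis genes, 6 were lower in organs and 0 higher, where 2.84% of all genes were lower and 3.7% higher. The largest were Tipin, a fork protection factor, at -1.94 (SE 0.26), Lig1, the ligase that joins Okazaki fragments, at -1.56 (SE 0.3), Prim1, the primase, at -1.31 (SE 0.22) and Rfc3, a subunit of the clamp loader, at -1.09 (SE 0.26). Of 41 measured mitosis genes, 15 were lower and 0 higher. The largest were Anln, a scaffold of the contractile ring, at -2.68 (SE 0.33), Ndc80, the microtubule hook of the kinetochore, at -2.29 (SE 0.26), Nusap1, a spindle protein, at -2.21 (SE 0.28), and Foxm1, a transcription factor of late cycle genes, at -2.19 (SE 0.33). Of 19 measured G1 regulators and brakes, 2 were lower and 0 higher, Myc, a growth-promoting transcription factor, at -1.75 (SE 0.41) and Rbl1, a retinoblastoma relative, at -0.94 (SE 0.2). The medians of the lists were -0.72, -0.73 and -0.29 against 0.03 over all genes. With the arrays labelled Heart and Melan A put back, limma called 0 genes in each list, and 3, 6 and 2 were lower at an unadjusted p below 0.05, against 3.01% of all genes.

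The promoters printed above were set beside the other genes. RefSeq promoters matched 75 of the 87 genes and 22 of the 25 genes lower in organs, with 84 and 23 promoters. Within 250 bases upstream of the start, CCAAT was found in 73.9% of the 23 promoters, 45.9% of the 61 promoters of the other members and 33.8% of 32851 promoters in all. TTTGAA or TTCGAA was found in 39.1%, 16.4% and 17.1%. Promoters with CCAAT and 1 of those 2 runs made up 39.1%, 8.2% and 6.02%, and TTTNNCGC was found in 21.7%, 16.4% and 4.28%. In the 23 promoters, every one with a TTTGAA or TTCGAA run also had CCAAT. Ccne1, Cdk4, Cenpo, Cenps, Plk4 and Pole2 were lower in organs with none of the letters searched. A match is only a run of letters in the window, and short runs are common, as the shares over all promoters show.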

How the data were processed

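Per the labels, own RNA (Trizol extract) was labelled with Cy3 and the mouse embryo reference with Cy5. The authors deposited 1 log ratio per probe and array, read here as log2; its base, direction, background correction and normalization are not given in sources used here. Deposited column medians were -0.035 to 0.03, so columns were centred or nearly so; base and direction stay unknown. Of 15247 probes, 15170 to 15210 had a value per array, 9600 had 1 gene symbol in the platform annotation, 214 several and 5433 were not listed; 9492 were found in RefSeq by gene number. Signs were turned, arrays centred on their median and probes of a gene averaged. Without intensities the signal over background is not known; precision is limited by the number of arrays.

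The class test was limma 3.58.1 under R 4.3.3 (lmFit, eBayes). Adjustment was by Benjamini-Hochberg over all genes with 3 values in lines and 2 in organs, with a threshold of 0.05. The code was run on simulated data with independent noise for each array, which cannot check the effect of related lines on the p-values. Single arrays were compared by differences with a 2-fold threshold and no test. Alternatives were the arrays in the fit, normalization, the probe rule, complete values, a robust prior and natural logarithms. The members, role groups, lists and alternatives were chosen with earlier results of these data known. Genes were named by rule: per role group up to 6 that passed, by size, or the 2 largest differences where none did; the 5 highest and 5 lowest per single-array difference; the 4 largest that passed per list; and the 15 genes most like the core. Cdk2 and members that missed the threshold were otherwise named after their values were seen.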

Additional observations from a re-analysis of the deposited data

Results flagged for a closer look

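Within the 5 lines, the highest or lowest array was tested for standing apart in 28 named genes, by its gap to the nearest line over the whole range (Dixon's 95% criterion), and 5 genes had such an array; chance gives about 1 in 20. For Bub1b the array labelled VA_MEF was low, at -0.45. For Cenpo NRAS_MEL was low, at 0.04. For Plk4 3T3 was high, at 1.03. For Racgap1 D6_MEL was high, at 1.21. For Mcm6 NRAS_MEL was low, at -1.0.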

How the results depend on the processing

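The count of 25 genes lower in organs became 0 with all 10 labelled arrays at an adjusted p below 0.05; all 25 kept their sign there. It ranged from 9 to 28 when 1 array was left out, and was 24 to 26 with columns as deposited, quantile normalization, other probe rules, complete values or a robust prior. The count of higher genes stayed at 0. Among single-array counts at 2-fold, NRAS_MEL minus D6_MEL had 3 higher under quantile normalization, 1 higher and 7 lower with the probe of highest variance, 5 higher and 9 lower with values read as natural logarithms, and 1 higher and 1 lower with D6_MEL replaced by the array labelled Heart. HRAS_MEL minus D6_MEL had 4 lower with that replacement. NRAS_MEL minus HRAS_MEL had 2 lower as deposited, under quantile normalization and with the probe of highest variance, and 7 higher and 6 lower as natural logarithms. The array labelled Heart minus D6_MEL had 3 lower as natural logarithms. VA_475 minus 3T3 had 1 higher under quantile normalization and with the probe of highest variance, and 3 higher and 6 lower as natural logarithms. The natural logarithm widens every difference by construction; the cause of the other changes was not tested. For the 28 genes carried through every setting, the difference between organs and lines kept its sign. Aurkc, which was followed only with all 10 labelled arrays, turned from 0.18 to -0.07 there. Signal over background was not analysed here and each group had 1 array, so a single-array value carries no error. No paired analysis was possible because each group has 1 array.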

Other observations

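Genes outside the 87 were ranked by how closely they followed the core median of 19 genes over the 11 arrays, and the 15 closest had Pearson r of 0.96 to 0.98. The arrays fall into 2 clusters, lines and organ-like values, and these genes were picked for the likeness, so r is a description. Within the 7 arrays 3T3, HRAS_MEL, VA_475, VA_MEF, D6_MEL, NRAS_MEL and the one labelled Heart, r ran from 0.37 (Anln) to 0.94 (Prim1 and Tmem167). Replication and repair genes among them were Prim1, Rfc3, Lig1, Msh6, a mismatch repair subunit, and Dtymk, a kinase of thymidylate. Prim1 stood at 0.9 in VA_475, 0.39 in 3T3 and -0.36 in the array labelled VA_MEF, and at -1.42, -1.07, -1.38 and -1.85 in the arrays labelled Kidney, Liver, Lung and Melan A. Division genes were Anln, Ndc80 and Cks1b, a Cdk-binding subunit. Anln, at 0.95 to 1.85 in those 7 arrays, stood at -2.16, -0.94, -0.9 and -2.13 in the other 4, named in the same order.

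The other 7 of the 15 carry other names: Exosc8, a subunit of the RNA exosome, the Golgi transport proteins Golt1b and Tmem167, Ppp1r14b, a phosphatase inhibitor, Trim59, Erh and Fbxl18. Tmem167 and Golt1b followed the core closely within the 7 arrays as well, at 0.94 and 0.88. Over all 11 arrays Golt1b ran from -0.42 in Kidney to 0.56 in VA_475, and Tmem167 from -1.03 in the array labelled Melan A to 0.82 in VA_475. Trim59 had a wide range, from -2.54 in the array labelled Melan A to 0.78 in VA_475.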
